A study of Mus musculus with 2 samples.

Results

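The nuclear genes for subunits of the 5 oxidative phosphorylation complexes were examined in total RNA of the mouse embryonic limb. Members were the protein-coding genes of the deposited gene tables whose symbol matched the name stems of these subunits (Nduf, Sdh, Uqcr, Cyc1, Cox4 to Cox8 and Atp5), leaving out the assembly factors named Ndufaf. There were 85 such genes among 43346 genes with Ensembl identifiers, of which 21474 were protein-coding. By name, 37 belong to complex I, 4 to complex II, 9 to complex III, 18 to complex IV and 17 to complex V. A further 10 processed pseudogenes matched the name stems and were not counted as members. The acyl carrier protein gene Ndufab1 was outside the rule.

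The samples were limbs of B6NCrl embryos at day 14.5, with 10 ng of RNA longer than 200 nt and added spike-in RNA per library. All belong to 1 group of 2 libraries, labelled biological replicates 1 and 2, so no treatment, genotype or time was compared. The labels give each as all limbs of a single pup while also giving the sex as pooled, and the donor, pup and pregnancy numbers are identical although the collection days differ. Whether they are separate animals is therefore not settled by the labels, and each SD over n = 2 measures only the spread between these libraries. The genes with Ensembl identifiers held 32384779 estimated counts in replicate 1 and 31170323 in replicate 2. The 6 limb markers checked were all detected, from 13.7 TPM for Tbx4, a hindlimb transcription factor gene, to 586 TPM for the cartilage collagen gene Col2a1.

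Oxidative phosphorylation takes electrons from NADH at complex I and from succinate at complex II, passes them through complex III to oxygen at complex IV, and uses the resulting proton gradient to make ATP at complex V. Every complex except complex II is built from both mitochondrial and nuclear gene products, and the nuclear genes considered here supply most of the subunits. Several complex IV subunits exist as paralogous forms, one made in most tissues and one enriched in heart and skeletal muscle, testis or lung, and limb muscle is forming its fibres at this stage.

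Of the 85 genes, 83 reached 1 TPM or more in both libraries. TPM is an abundance of transcripts corrected for length and scaled to a fixed total, so that genes can be compared with each other. The median gene stood at 270.3 TPM, against 18.6 TPM for the 13178 nuclear protein-coding genes at 1 TPM or more in both libraries. In both libraries 72 genes were at 100 TPM or more and 14 at 500 TPM or more. The same number, 72, lay above 105 TPM, the 90th percentile of the detected genes. Together the subunit genes summed to 28166 TPM in replicate 1 and 26626 TPM in replicate 2. They held 1.38% and 1.29% of the estimated counts. Among the genes at 1 TPM or more, the highest mean level exceeded the lowest by 463-fold. Between the libraries 78 of the 83 levels lay within 1.2-fold of each other, the median fold was 1.06 and the ranks of the 83 genes correlated with a Spearman rho of 0.997, a description across genes of the same 2 libraries.

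**Figure D1:**
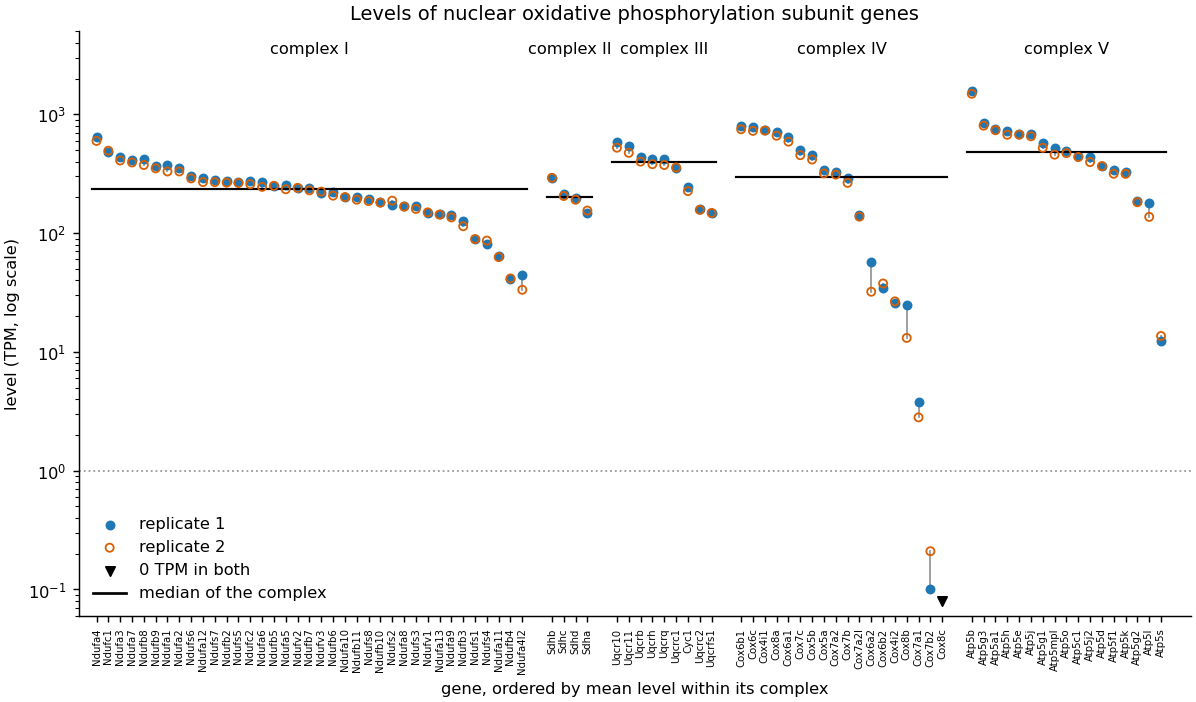
Level of each subunit gene in TPM on a log scale, ordered by mean level within its complex, with filled points for replicate 1, open points for replicate 2 and a bar at the median of each complex. Most genes lie within 1 order of magnitude. The low end holds paralogues of complex IV, down to Cox8c at 0 in both libraries, Atp5s, and Ndufa4l2 and Ndufb4 of complex I.

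In complex I the median of the 37 genes was 235 TPM, from 39.0 TPM for Ndufa4l2 to 623 TPM for Ndufa4. Ndufa4, named as a complex I subunit and since assigned to complex IV, stood at 649.8 (replicate 1) and 597 TPM (replicate 2). Ndufc1, a small accessory subunit of the membrane arm, was at 483 and 494 TPM, and Ndufa3, another small accessory subunit, at 439.7 and 408 TPM. The 7 nuclear core subunits, which carry the flavin and the iron-sulfur clusters or the quinone site, had a median of 180.4 TPM, from 89.0 ± 0.212 TPM (SD, n = 2) for Ndufs1 to 275 ± 9.37 TPM for Ndufs7. The 30 accessory subunits, which surround the core, had a median of 246 TPM. Apart from Ndufa4l2 the lowest gene of complex I was Ndufb4, at 40.9 (replicate 1) and 41.5 TPM (replicate 2), a value affected by a pseudogene described further on.

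Complex II, succinate dehydrogenase, had the narrowest range. Sdha, the flavoprotein that oxidises succinate, was at 148 (replicate 1) and 155 TPM (replicate 2). Sdhb, the iron-sulfur subunit, was at 293 and 292 TPM. The membrane anchors Sdhc and Sdhd were at 212 and 205 TPM and at 197 and 191 TPM. The libraries differed little in each of the 4 genes, and the highest mean exceeded the lowest by 1.93-fold.

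In complex III the 5 small subunits were the most abundant, with a median of 417 TPM. Uqcr10 stood at 582 (replicate 1) and 523 TPM (replicate 2), Uqcr11 at 544 and 474 TPM, and Uqcrb, the quinone-binding protein, at 434 and 399 TPM. All 3 were higher in replicate 1. The subunits that carry the electron-transferring centres were lower, cytochrome c1 (Cyc1) at 244 and 226 TPM and the Rieske iron-sulfur protein (Uqcrfs1) at 147 and 148 TPM. The core proteins differed from each other, with Uqcrc1 at 353 ± 4.87 TPM and Uqcrc2 at 159 ± 2.49 TPM.

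In complex IV, cytochrome c oxidase, the 10 ubiquitous nuclear subunits had a median of 546 TPM, from 277 ± 16.7 TPM for Cox7b to 771 ± 32.8 TPM for Cox6b1. Cox6b1, which faces the intermembrane space, stood at 794 (replicate 1) and 748 TPM (replicate 2), and Cox6c at 783 and 725 TPM. Cox4i1, the largest nuclear subunit, was at 743 and 729 TPM. The 7 tissue-enriched forms had a median of 19.0 TPM and all stood below every ubiquitous form in both libraries.

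The forms enriched in heart and skeletal muscle were present at a small part of the level of their ubiquitous counterparts. Cox6a2 (GRCm38, chromosome 7, 128205435 to 128206387) was at 56.6 (replicate 1) and 32.1 TPM (replicate 2), against 643 and 588 TPM for Cox6a1. Its log2 ratio to Cox6a1, taken on TPM + 0.1, was -3.85 ± 0.49 (SD, n = 2), and it made up 8.08% and 5.18% of the pair. Cox8b (chromosome 7, 140898945 to 140900446) was at 24.8 and 13.1 TPM, against 706 and 659.8 TPM for Cox8a. Its log2 ratio was -5.23 ± 0.58, and it made up 3.39% and 1.95% of the pair. Cox7a1 (chromosome 7, 30184144 to 30186078) was at 3.78 and 2.81 TPM, against 328 and 310.5 TPM for Cox7a2. Its log2 ratio was -6.57 ± 0.24, resting on 23 and 16 counts. In replicate 1 Cox7a2 exceeded Cox7a1 by 86.9-fold, and the exact Poisson 95% interval of the low count allows 58.0- to 137-fold. In replicate 2 the excess was 110.5-fold, with 68.0- to 193-fold allowed. These intervals cover counting error only. The 3 muscle forms thus differed among themselves in level, Cox6a2 highest and Cox7a1 lowest, in both libraries.

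The other paralogues were also below their partners. Cox4i2, known from lung, was at 25.8 (replicate 1) and 26.6 TPM (replicate 2), a log2 ratio to Cox4i1 of -4.81 ± 0.05. Cox6b2, known from testis, was at 34.5 and 37.6 TPM, a ratio to Cox6b1 of -4.42 ± 0.15. Ndufa4l2, a paralogue of Ndufa4 induced by low oxygen, was at 44.6 and 33.3 TPM, a ratio of -4.01 ± 0.21. The testis forms Cox7b2 and Cox8c were at or near 0. Cox7b2 had 1 count in replicate 1 and 2 counts in replicate 2, or 0.10 and 0.21 TPM, which puts Cox7b higher by 2884-fold with a counting interval of 527- to 116000-fold in replicate 1, and by 1261-fold with 348- to 10390-fold in replicate 2. Cox8c had no count in either library, and a count of 0 allows up to 3 counts per library, so Cox8a was at least 2041-fold and 1780-fold higher. Cox7a2l, which shares its family with Cox7a2 and is known as a supercomplex factor, was closest to its relative, at 142 and 137 TPM and a ratio of -1.19 ± 0.02. Whether its protein acts so in this strain was not measured.

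Leaving out Cox7b2 and Cox8c, which were not so compared, these ratios exceeded the difference between libraries of single genes at a like level. Of the 500 genes nearest in level, 95% differed between libraries by less than 0.37 (log2) for Cox6a2 with Cox6a1, 0.39 for Cox8b with Cox8a, 0.81 for Cox7a1 with Cox7a2, 0.34 for Cox4i2 with Cox4i1, 0.33 for both Cox6b2 with Cox6b1 and Ndufa4l2 with Ndufa4, and 0.24 or 0.25 for the other pairs so measured. No p-value was given to a ratio, since the smallest that an exact sign-flip test can give with 2 libraries is p = 0.5. The coding sequences of the muscle pairs differ throughout. Aligned base by base, 66.6% of positions were identical between Cox6a2 and Cox6a1, 65.4% between Cox7a1 and Cox7a2 and 58.2% between Cox8b and Cox8a, and the longest run shared by any of these 3 pairs was 12 nt.

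**Figure D2:**
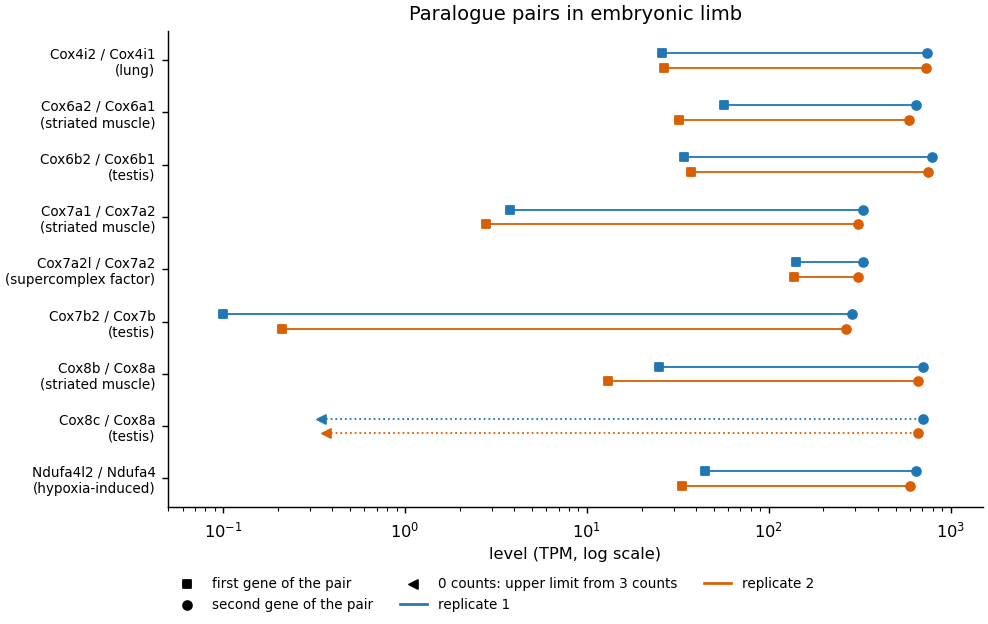
Levels in TPM on a log scale of the genes of 9 paralogue pairs, with squares for the first gene and circles for the second gene of each pair, and a line per library. Arrows mark the limit that 3 counts would give for Cox8c, and the tissue in brackets is background, not measured here. In all 9 pairs the first gene is the lower in both libraries, and the muscle forms Cox6a2 and Cox8b lie farther left in replicate 2.

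Complex V, ATP synthase, held the highest subunit gene of all complexes. Atp5b, the catalytic beta subunit of the head, stood at 1559 (replicate 1) and 1488 TPM (replicate 2), and its partner in the head, the alpha subunit gene Atp5a1, at 746 and 734 TPM. The 5 head and central stalk genes had a median of 679 TPM, the 4 peripheral stalk genes 574 TPM and the 4 small membrane subunits 368 TPM. The lowest genes of the complex were Atp5l, subunit g of the membrane part, at 178 and 137 TPM, and Atp5s, factor B, at 12.3 and 13.6 TPM. Atpif1, the inhibitor protein that binds the head, stood at 759 and 742 TPM, and Usmg5, a small subunit outside the name rule, at 977 and 824 TPM.

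Subunit c, which forms the rotating ring of the membrane part, is encoded by 3 genes whose proteins differ in the targeting peptide that is cut off. Atp5g3 (GRCm38, chromosome 2, 73908447 to 73911326) was the highest, at 838 (replicate 1) and 802 TPM (replicate 2). Atp5g1 (chromosome 11, 96068852 to 96075670) was at 572 and 522 TPM, and Atp5g2 (chromosome 15, 102662864 to 102672352) at 187 and 182 TPM. The order was the same in both libraries. Atp5g3 held 52.5% and 53.2% of their sum, Atp5g1 35.8% and 34.7%, and Atp5g2 11.7% and 12.1%. The sum, 1598 and 1506 TPM, was 1.03 and 1.01 times the level of Atp5b. The end of the 3 coding sequences is shown because the genes carry the same message there in different letters. It covers 228 nt up to and including the stop codon, and capitals mark the bases that differ from Atp5g3:
Atp5g3: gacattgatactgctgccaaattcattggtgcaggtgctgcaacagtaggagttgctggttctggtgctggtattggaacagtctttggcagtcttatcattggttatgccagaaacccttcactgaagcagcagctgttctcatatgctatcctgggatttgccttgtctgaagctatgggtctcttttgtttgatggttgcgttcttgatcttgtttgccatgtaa
Atp5g1: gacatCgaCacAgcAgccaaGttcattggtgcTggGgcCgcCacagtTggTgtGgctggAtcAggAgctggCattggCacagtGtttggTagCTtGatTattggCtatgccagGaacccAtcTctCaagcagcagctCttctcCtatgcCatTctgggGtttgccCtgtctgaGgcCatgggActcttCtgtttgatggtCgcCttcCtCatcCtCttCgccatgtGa
Atp5g2: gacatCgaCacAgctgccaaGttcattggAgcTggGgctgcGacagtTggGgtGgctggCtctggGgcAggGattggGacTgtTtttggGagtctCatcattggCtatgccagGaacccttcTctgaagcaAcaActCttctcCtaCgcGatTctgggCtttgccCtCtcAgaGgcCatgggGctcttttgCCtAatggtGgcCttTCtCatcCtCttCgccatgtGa
Atp5g1 differs from Atp5g3 at 46 of the 228 positions, of which 41 are the last base of a codon, and Atp5g2 at 49, of which 44 are. Of 76 codons, 43 differ in Atp5g1 and 45 in Atp5g2, and 0 of them has another meaning. Despite this stretch of shared protein, the longest run that any 2 of the 3 coding sequences have in common is 21 nt, between Atp5g1 and Atp5g2. Reads of Atp5g1 and Atp5g2 can be confused with pseudogene copies, as given further on.

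Atp5c1, the gamma subunit of the central stalk, is spliced in a tissue-dependent way: the form that skips exon 9 is known from heart and skeletal muscle. The exon is 37 nt long (GRCm38, chromosome 2, 10056770 to 10056806, minus strand). The form with the exon stood at 330.4 (replicate 1) and 347 TPM (replicate 2), and the form without it at 109 and 82.3 TPM. The form without the exon thus held 24.5% and 18.9% of the gene, and the form with it 74.2% and 79.5%. Skipping the exon ends the reading frame at another codon, and the last bases of both coding sequences, with the part that differs in capitals, are as follows:
Atp5c1 without exon 9: atcatctctggggctgctgctctgTAA
Atp5c1 with exon 9: atcatctctggggctgctgctctgGATTAA
Here, as for Cox6a2 and Cox8b, the muscle form was the lower of both forms and was lower in replicate 2 than in replicate 1. No test was made on the share of a transcript.

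For most subunit genes 1 transcript carried most of the level. Of the 83 genes at 1 TPM or more, 27 had 1 annotated transcript and 56 had more. In the 56, the leading transcript held a median of 89.1% of the gene, in 28 it held over 90%, and the leader was the same in both libraries for all 83. Ndufv3, an accessory subunit of complex I with a short and a long form, was carried by the short one (Ndufv3-202) at 84.3% and 83.9%, with the long one (Ndufv3-201) at 15.2% and 15.6%. For 7 genes the leading transcript is annotated as other than protein-coding. The highest such share was that of Ndufa5, where a processed transcript held 93.9% in replicate 1 and 92.8% in replicate 2. In Atp5f1 a transcript annotated for nonsense-mediated decay held 64.8% and 62.0%, and the coding one 33.1% and 36.2%. In Cox5b, Cox7b and Atp5j, processed or retained-intron transcripts of 362, 526 and 526 nt held 55.9 ± 0.91%, 52.3 ± 0.68% and 54.6 ± 1.41%. Reads assigned to a short transcript count for more TPM than the same reads assigned to a longer one, so the levels of these genes depend on that assignment.

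Some subunit mRNAs share sequence with other annotated genes. The leading coding transcript of each of the 83 genes was read in windows of 100 nt, in its GENCODE M21 sequence. Each window was looked for in all other annotated genes on either strand. Some of these sequences differ in length from the deposited transcript, such as Ndufa11-201 at 545 nt against 2661 nt. For 55 genes no window was shared, for 8 under 10% of windows were, and for 20 at least 10%. The type of the gene sharing most windows was read by its symbol among the genes of the deposited tables. In 12 of the 20 it is a processed pseudogene, in 5 protein-coding (such as Smim27 for Ndufb6) and in 1 a noncoding RNA gene. In 2 the gene has no entry in the deposited tables, so no type was read. For Atp5o, counted among the 5, the other gene has the same symbol, so its own type was not read. At 50% or more were Atp5g2 (86.4%, with the pseudogene Gm10175), Atp5l (69.0%, of which the most with Gm10221) and Atp5g1 (57.3%, with Gm10039). These pseudogenes were themselves listed at 261 and 261 TPM, at 696 and 631 TPM, and at 149 and 139.6 TPM in replicates 1 and 2. The deposited tables give a posterior SD for each count, a measure of the uncertainty of read assignment. It passed 1% of the count in 4 genes, Atp5g1, Atp5g2, Atp5l and Ndufb4, and was 0 in both libraries in 52 of the 85.

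**Figure D3:**
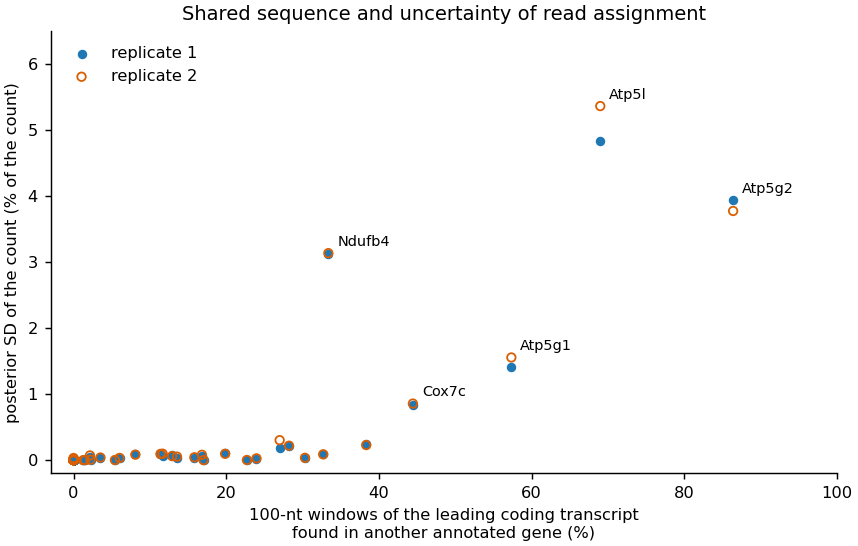
Posterior SD of the count, as a percent of the count, against the percent of 100-nt windows of the leading coding transcript that occur in another annotated gene, with filled points for replicate 1 and open points for replicate 2. The 4 genes above 1% are named, together with Cox7c, and lie at 33.4% of windows or more.

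Ndufb4, an accessory subunit of the membrane arm of complex I on chromosome 16 (GRCm38, 37647170 to 37654453), shared its whole coding sequence with a processed pseudogene, Ndufb4c, on chromosome 15 (73809507 to 73809896). The 390 nt of the coding sequence and of the pseudogene transcript are identical at all 390 positions, and the first 300 nt are shown once for both:
Ndufb4 and Ndufb4c: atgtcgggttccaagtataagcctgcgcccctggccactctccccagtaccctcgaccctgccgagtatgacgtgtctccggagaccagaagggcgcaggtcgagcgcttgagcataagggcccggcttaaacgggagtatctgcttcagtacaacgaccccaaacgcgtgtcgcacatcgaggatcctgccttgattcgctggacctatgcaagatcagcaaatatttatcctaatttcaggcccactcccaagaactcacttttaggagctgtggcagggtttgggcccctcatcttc
The tables gave 556 counts to Ndufb4 and 1887 to the pseudogene in replicate 1, and 466 and 1588 in replicate 2. The pseudogene was listed at 282 and 254 TPM. The posterior SD of the count was the same for both, 17.3 in replicate 1 and 14.6 in replicate 2. Reads within the coding sequence cannot be told apart between them, and the sum of both was 323 and 296 TPM. In both libraries that sum lay between the levels of Ndufa2 and Ndufs6, whereas the listed level of Ndufb4 lay near the bottom of complex I.

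The subunit genes were lower in replicate 2 than in replicate 1, most of them by a small amount. Counts were compared by a two-sided exact binomial test given library sizes from TMM normalisation, with Benjamini-Hochberg adjustment over the 19153 genes that had at least 10 counts in both libraries summed. With 1 library on each side the test covers counting error only: it compares these libraries, not conditions, and has no replicate check. Of 83 subunit genes tested, 69 were lower in replicate 2 at an adjusted p under 0.05 and 0 were higher, against a background of 14.3% of all genes tested called lower and 13.2% called higher. The median log2 ratio of replicate 2 over replicate 1 was -0.15, against 0.00 for all genes tested at a mean of at least 1 TPM, and 81 of 83 ratios were below 0. With library sizes from total counts 54 genes were called lower and 78 ratios were below 0, and with sizes from spike-in counts 46 and 73. By TPM, which has its own scale, 67 of the 85 genes were lower in replicate 2, 17 were higher and 1 was equal. With these sizes the calls over all genes moved from 2536 higher and 2748 lower to 3334 and 2233, and to 4167 and 1871. An alternative was the exact test of edgeR with the common dispersion, which counts the typical difference of these libraries as error. By this test 1 of 83 genes was lower and 0 higher, against a background of 0.491% lower and 0.177% higher of 16920 genes. At an unadjusted p under 0.05 that test had 4 of the 83 genes (4.82%) lower and 0 higher, beside 1120 of all 16920 genes (6.62%) in either direction.

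By complex, the binomial test called lower 30 of 37 genes in complex I, 3 of 4 in complex II, 7 of 9 in complex III, 13 of 16 in complex IV and 16 of 17 in complex V. Sdha of complex II was called at a log2 ratio of -0.06, but by TPM it was higher in replicate 2. With sizes from total and spike-in counts its ratio was -0.03 and -0.01, and it was not called. Ndufv2, Ndufa10 and Ndufb4 of complex I were also called lower although their TPM was higher in replicate 2. Within complex III all 5 small subunits were called, with a median log2 ratio of -0.23. Within complex I, 26 of 30 accessory genes and 4 of 7 core genes were called. With TMM library sizes the ratios above 0 among genes at 1 TPM or more were those of Atp5s, at 0.08 (adjusted p = 0.642, binomial test), and Ndufs4, at 0.01. With sizes from spike-in counts 10 ratios were above 0.

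The largest differences between the libraries were in the muscle forms. Cox8b had 150 counts in replicate 1 and 74 in replicate 2, a log2 ratio of normalised counts of -0.99 (adjusted p = 9.2e-06, exact binomial test). Cox6a2 had 727 and 385 counts, a ratio of -0.89 (adjusted p = 9.7e-22, exact binomial test), and was the gene called lower by edgeR's exact test (adjusted p = 0.016). By edgeR's test Cox8b stood at an adjusted p of 0.074. Cox7a1 had a ratio of -0.50 that the binomial test did not call (adjusted p = 0.527). Next came Ndufa4l2 at -0.49, Atp5l at -0.45 and Uqcr11 at -0.27, each called lower by the exact binomial test (adjusted p = 1.8e-09, 3.8e-15 and 2.2e-15). Of these, Ndufa4l2 and Atp5l were at adjusted p = 0.540 and 0.627 by edgeR's exact test, and Uqcr11 at 1.0. The binomial test called 2 of the 3 muscle forms lower. Leaving out all 3 therefore left 67 of 80 genes lower, with a median of -0.14. Without the 20 genes that share 10% or more of their windows with another gene, 49 of 63 were lower. Atp5l is among those left out, with a posterior SD of 4.84% (replicate 1) and 5.37% (replicate 2) of its count. The binomial test takes the counts as given and leaves out this uncertainty of read assignment.

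Skeletal muscle markers moved the same way. All 20 were called lower in replicate 2 by the binomial test, 4 of them also by edgeR's exact test, with log2 ratios from -1.34 to -0.38 and a median of -0.59. Their summed level was 4873 TPM in replicate 1 and 3373 TPM in replicate 2. The highest were the actin genes Actc1, at 966 and 695 TPM, and Acta1, at 770.0 and 478 TPM, and the myosin light chain gene Myl1, at 526 and 359 TPM. None of the 20 markers was at 0. The part of the markers in the differences of Cox6a2, Cox8b and the Atp5c1 form was not tested, and in whole limb RNA fewer muscle cells and less RNA per muscle cell cannot be told apart. Of the limb markers, the binomial test called 5 of 6 higher in replicate 2 and Col2a1 lower, and edgeR's exact test called 0 of 6. Over all genes tested, the binomial test called 14.3% lower and 13.2% higher.

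**Figure D4:**
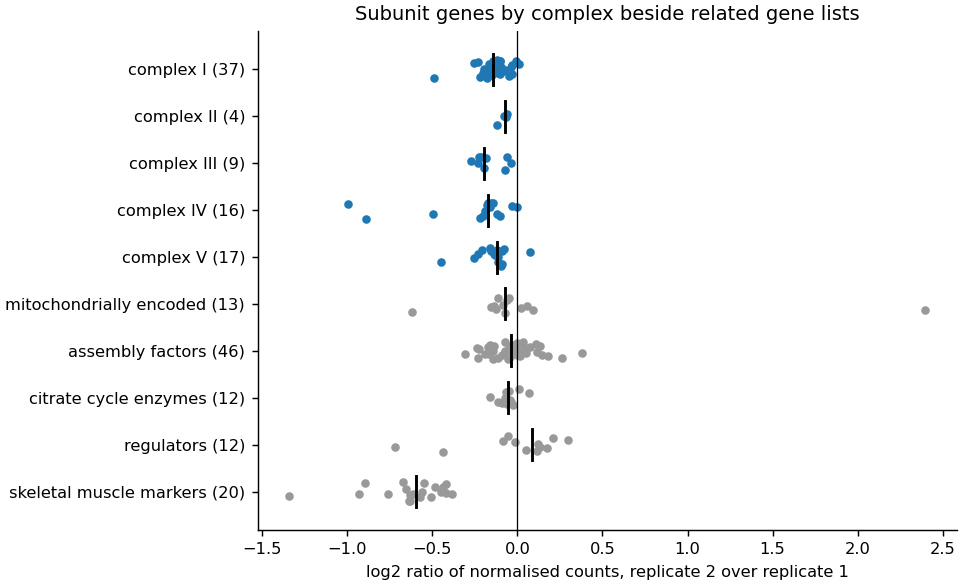
Log2 ratio of normalised counts, replicate 2 over replicate 1, of each gene at 1 TPM or more in the 5 complexes and in 5 related lists, with a bar at each median. The complexes have medians between -0.19 and -0.07, the skeletal muscle markers -0.59, and the 2 leftmost points of complex IV are Cox8b and Cox6a2.

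Gene length moved with the difference between the libraries. The subunit genes are short, with a median length of 679 nt against 2515 nt for detected nuclear protein-coding genes. Among subunit genes under 600 nt 28 of 31 were lower in replicate 2, with a median log2 ratio of -0.18. From 600 to 1000 nt 26 of 30 were lower, with a median of -0.15, and over 1000 nt 15 of 22, with a median of -0.09. Other nuclear protein-coding genes that had at least 1000 counts over both libraries showed the same order: 71.2% of 118 genes lower in the shortest class, 44.6% of 523 in the middle one and 16.1% of 8504 in the longest one, at medians of -0.15, -0.10 and 0.01. The cytosolic ribosomal protein genes, which are also short and abundant, had 78 of 85 lower and a median of -0.15. Over the 83 subunit genes, length and log2 ratio had a Spearman rho of 0.567, and over the 80 without the muscle forms 0.547. Over the detected nuclear protein-coding genes rho was 0.215. These are descriptions across genes that share the same 2 libraries. The part of length in the lower subunit counts was not tested.

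**Figure D5:**
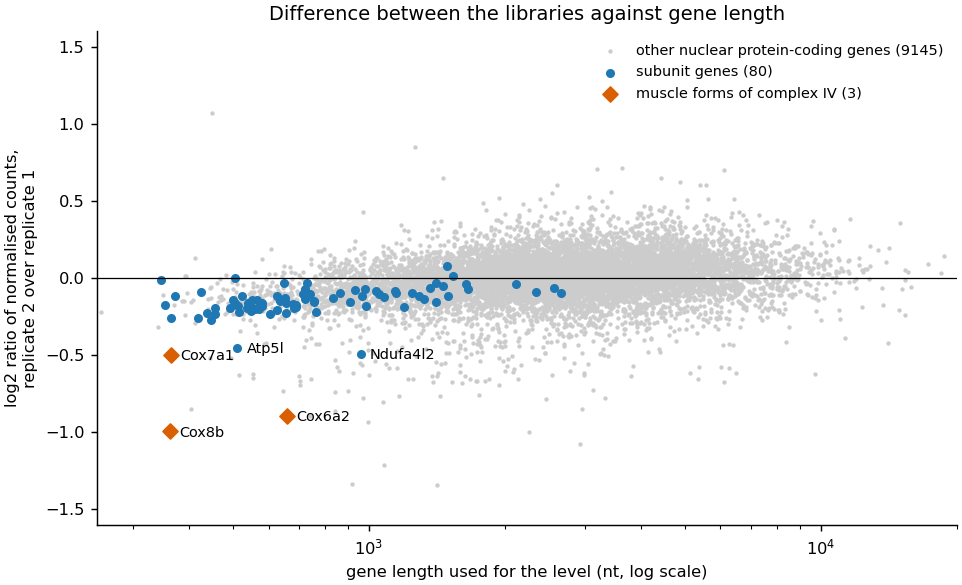
Log2 ratio of normalised counts, replicate 2 over replicate 1, against gene length on a log scale, for 80 subunit genes, the 3 muscle forms of complex IV and 9145 other nuclear protein-coding genes that had at least 1000 counts over both. Most subunit genes lie just below 0 within the spread of other short genes, and Cox8b, Cox6a2, Cox7a1, Atp5l and Ndufa4l2 lie lower.

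Beside the median of 270.3 TPM of the subunit genes, assembly factors and citrate cycle enzymes had lower medians and mitochondrially encoded subunits a higher one. All 46 assembly factors were detected, with a median of 28.6 TPM, and 4 were lower and 1 higher in replicate 2 by the binomial test. That test called 14.3% of all genes tested lower and 13.2% higher, which is the background for each list given here. The highest were Uqcc2, a complex III assembly factor, at 264 (replicate 1) and 236 TPM (replicate 2), and Cox14 and Coa3, factors for the first steps of complex IV, at 149 and 134 TPM and at 140.0 and 143 TPM. The 12 citrate cycle enzymes had a median of 92.3 TPM, with 3 lower and 0 higher. Malate dehydrogenase Mdh2 led at 331 and 341 TPM, followed by the isocitrate dehydrogenase subunit Idh3g at 167 and 170.0 TPM and citrate synthase Cs at 134 and 133 TPM. The 13 mitochondrially encoded subunits had a median of 1698 TPM, with 9 lower and 4 higher, and the largest ratio was that of mt-Nd4l, at 17.2 and 94.7 TPM, the 1 gene of the 13 that edgeR's exact test called, as higher (adjusted p = 1.2e-15). The genes mt-Atp6 and mt-Atp8 of complex V and mt-Cytb of complex III led at 5908 ± 269, 5183 ± 33.9 and 3327 ± 23.0 TPM.

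Regulators of respiratory genes were all detected, at a median of 25.5 TPM. Tfam, the mitochondrial DNA packaging and transcription factor, was highest at 44.0 (replicate 1) and 43.9 TPM (replicate 2). Nrf1 and the GABP subunits Gabpa and Gabpb1, which bind many subunit promoters, were at 36.3 and 45.6, at 26.2 and 29.1, and at 36.7 and 45.5 TPM. The mitochondrial transcription proteins Tfb1m, Tfb2m and Polrmt were at 13.1 and 13.7, at 23.9 and 22.4, and at 26.4 and 28.8 TPM, and Yy1 at 21.4 and 25.5 TPM. The coactivators of the PGC-1 family were at 2.87 and 2.47 TPM for Ppargc1a, 2.91 and 3.76 TPM for Ppargc1b and 30.4 and 38.1 TPM for Pprc1. Their partner Esrra, an estrogen-related receptor, was at 3.12 and 1.98 TPM. By the exact binomial test Ppargc1a and Esrra were lower in replicate 2, with log2 ratios of -0.44 and -0.72, and Pprc1, Nrf1, Gabpb1 and Yy1 higher, with ratios from 0.11 to 0.21. The 2 called lower were 16.7% of the 12, beside 14.3% of all genes tested called lower and 13.2% called higher. None of the 12 was called by edgeR's exact test.

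Promoter sequences from RefSeq (GRCm38.p6, 250 bases before to 50 after a start) were found for 66 of the 85 genes, as 71 promoters. Motifs were looked for as exact letters on both strands, and a match describes the letters only. The NRF1 motif, GCGCA, any base and GCGC, was in 25.4% of the 71 promoters, against 4.6% of 32851 promoters of all genes, the ETS motif CCGGAAG in 22.5% against 8.86%, the YY1 motif AANATGGCG in 14.1% against 2.38% and the ERR motif AAGGTCA in 11.3% against 4.72%. The E-box CANNTG was in 67.6% against 72.3% and TATAAA in 11.3% against 13.6%. The letters CTA, any 4 bases and TAG, searched for as MEF2, were in 1.41% against 3.69%. That pattern leaves its 4 inner bases open and only approximates a MEF2 site. Base composition, which differs between promoters, was not matched in these shares. The 250 bases before the start are shown for Cox6a1, picked for its several matches, and for Cox8b and Cox7a1, the muscle forms with an entry, with matches in capitals. In Cox6a1 (chr5:115348959-115349208, minus strand) they are 2 NRF1 matches and 1 ETS match, and in Cox8b (chr7:140900447-140900696, minus strand) and Cox7a1 (chr7:30183921-30184170, plus strand) 1 E-box each. The ubiquitous partners Cox8a and Cox7a2, not shown, likewise have 1 E-box each and no other match in these 250 bases. Cox7b and Ndufa4 have no match in them. With the 50 bases after the start included, Cox8a also has the ETS motif, Cox7b an E-box and Cox8b TATAAA. Cox6a1 was picked for its matches and does not stand for ubiquitous forms as a group. The sequences are:
Cox6a1: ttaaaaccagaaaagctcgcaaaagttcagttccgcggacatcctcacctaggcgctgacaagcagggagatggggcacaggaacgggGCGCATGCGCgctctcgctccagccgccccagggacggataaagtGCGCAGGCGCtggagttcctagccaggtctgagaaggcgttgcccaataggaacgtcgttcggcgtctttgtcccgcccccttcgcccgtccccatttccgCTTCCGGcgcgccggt
Cox8b: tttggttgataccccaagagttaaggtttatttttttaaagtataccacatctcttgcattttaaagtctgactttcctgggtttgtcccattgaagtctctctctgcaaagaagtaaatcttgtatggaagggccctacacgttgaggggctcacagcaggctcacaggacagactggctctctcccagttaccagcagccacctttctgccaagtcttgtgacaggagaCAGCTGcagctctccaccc
Cox7a1: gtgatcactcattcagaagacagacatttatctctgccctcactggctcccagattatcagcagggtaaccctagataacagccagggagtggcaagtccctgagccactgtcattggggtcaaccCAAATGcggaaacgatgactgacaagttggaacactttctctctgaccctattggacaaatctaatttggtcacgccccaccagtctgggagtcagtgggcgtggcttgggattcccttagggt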

How the data were processed

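RNA was extracted with a mirVana kit, per the labels' protocols. Notes deposited beside the tables name mm10 as build and GENCODE M4 as annotation. Which aligner and quantifier were used, and whether strand was kept, is not stated there or in the labels. The authors deposited expected counts, which are estimates and not always whole, and these were rounded for tests. The TPM values deposited by the authors correct for effective length and include spike-ins and mitochondrial genes in their total. FPKM values deposited by the authors and posterior mean TPM served in alternatives. The percent of a gene held by each transcript and the posterior SD of each count, a signal column, are further deposited columns.

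Symbols, transcript types, positions and transcript sequences came from GENCODE M21 on GRCm38. Analysis used Python 3.11.15, pandas 2.3.3, scipy 1.17.1, matplotlib 3.10.9 and Biopython 1.88, and edgeR 4.0.16 and DESeq2 1.42.0 under R 4.3.3. The binomial test was checked on simulated counts drawn with counting error only, as the test assumes. That check does not cover further spread between libraries. Adjusted p-values are Benjamini-Hochberg values over all genes tested, at a threshold of 0.05. Counting intervals are at 95% and cover counting error only, since no molecular identifiers are recorded. Ratios used TPM + 0.1.

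The members, pairs, marker lists and motifs were chosen with earlier results of these data known. Named in full were the genes of pairs, the 3 highest and 2 lowest members of each complex, complex II, members under 1 TPM and the 5 called members of largest difference in each direction. Also named were the 3 highest genes of each companion list and the regulators. Other genes named were chosen after their values were seen.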

Additional observations from a re-analysis of the deposited data

How the results depend on the processing

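No paired analysis was possible because both libraries belong to 1 group. The median level of the subunit genes, 270.3 TPM, was 264 TPM from posterior means and 362 TPM when FPKM values were rescaled to the total of nuclear protein-coding genes, which leaves other RNA out of the total. Leaving out each library in turn gave 265 to 275 TPM for that median and 89.1 to 90.7% for the leading transcript, against 89.1%. It gave log2 ratios of -4.19 to -3.51 for Cox6a2, -5.64 to -4.83 for Cox8b and -6.74 to -6.40 for Cox7a1 to their partners. With a pseudocount of 1 the ratio of Cox7a1 was -6.23. The number of genes detected was 83 at 0.5 TPM and 82 at 5 TPM. The number of subunit genes lower in replicate 2, 69 by the binomial test, was 1 by edgeR's exact test, which sets the difference against a coefficient of variation of 0.0992. It ranged from 46 to 69 over other scalings and count filters, and 0 were called higher under any of these. The counts without the muscle forms and without genes of shared sequence were added after seeing the data. With 2 libraries, a single library decides each difference between them.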
